A study of Mus musculus with 51 samples.

Results

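Peg10, Sgce and Mest are 3 imprinted genes of mouse chromosome 6, and the histone marks over them were read in hybrid embryos at embryonic day (E) 6.5. The members were chosen by position: every peak of the 6 allelic read count tables (3 marks in 2 tissues) and every 1 kb window of the table of all libraries that lies at chr6:4600001-4900000, around Peg10 and Sgce, or at chr6:30700001-30770000, around Mest (GRCm38). This gave 35 of 144952 autosomal peaks and 370 of 2462755 windows. H3K4me3 gave 10 of the peaks in epiblast and 12 in extra-embryonic ectoderm (ExE), H3K27me3 gave 2 and 1, and H3K36me3 gave 6 and 4.

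The embryos were F1 hybrids of C57BL6/Babr (B6) and CAST/Ei (CAST) mice, with the mother written first, so that B6/CAST and CAST/B6 are the reciprocal wild-type crosses. In matDKO/CAST the mothers were B6/129 females with Dnmt3a floxed/floxed and Dnmt3b floxed/floxed alleles and a Zp3-cre transgene, which acts in growing oocytes. These embryos therefore came from eggs that had grown without de novo DNA methylation, and their fathers were CAST males. All crosses were untreated natural matings collected at E6.5, and each chromatin sample was a pool of 4 epiblasts or 8 ExE from which the antibody reactions and an input were taken. There were 36 ChIP libraries, 2 for each of the 18 combinations of cross, tissue and mark, and 15 inputs. The labels name the replicates and not the litters, so p-values measure the spread between these samples. The deletion itself was not analysed here.

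Genomic imprinting leaves one parental copy of a gene active and the other silent. In its classical form, which applies to these 3 genes, this goes through DNA methylation that was laid down in the egg or the sperm and is kept on the copy from that parent after fertilization. Peg10, a gene derived from a retrotransposon and needed for the placenta, and Sgce, which encodes the membrane protein epsilon-sarcoglycan, start head to head at 1 shared CpG-rich promoter that is methylated in the oocyte. Mest, a member of the alpha/beta hydrolase family, has a CpG-rich promoter of the same kind, and at all of these genes the copy from the mother is methylated and silent while the copy from the father is expressed. H3K4me3 marks active promoters, H3K36me3 marks transcribed gene bodies, and H3K27me3 marks promoters and domains held silent by Polycomb. Sgce (ENSMUSG00000004631.15) lies on the minus strand at chr6:4674350-4747207 and Peg10 (ENSMUSG00000092035.8) on the plus strand at chr6:4747306-4760517. Mest (ENSMUSG00000051855.15) lies on the plus strand at chr6:30723547-30748465 in GENCODE vM21, and its main start is inside that interval.

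The promoter of Mest is shown because the largest parental differences lay over it, and that of Casd1, a sialic acid acetyltransferase gene next to Sgce, because it lies in the same region without a called H3K4me3 difference at its start. The sequences are RefSeq promoters on GRCm38, 250 bases before to 50 after a start. Peg10 and Sgce have no entry in that table. Capitals mark TGCCGC or its reverse complement GCGGCA, the hexamer that the imprint-keeping protein ZFP57 binds when it is methylated, searched on both strands. The main Mest start lies at chr6:30737800-30738099, a Mest start farther upstream at chr6:30733256-30733555, and the Casd1 start at chr6:4600661-4600960, all on the plus strand.

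Mest main start: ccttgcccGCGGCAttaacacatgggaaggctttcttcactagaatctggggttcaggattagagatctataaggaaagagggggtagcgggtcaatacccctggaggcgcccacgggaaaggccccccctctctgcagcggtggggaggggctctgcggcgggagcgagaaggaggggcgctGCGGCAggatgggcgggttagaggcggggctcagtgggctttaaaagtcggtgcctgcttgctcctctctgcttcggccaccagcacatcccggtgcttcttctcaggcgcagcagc
Mest upstream start: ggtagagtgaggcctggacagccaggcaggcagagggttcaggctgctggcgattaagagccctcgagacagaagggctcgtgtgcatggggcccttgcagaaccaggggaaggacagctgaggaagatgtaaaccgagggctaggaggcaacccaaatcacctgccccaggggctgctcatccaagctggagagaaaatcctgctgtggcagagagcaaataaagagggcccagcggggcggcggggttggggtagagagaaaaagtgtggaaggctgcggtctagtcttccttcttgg
Casd1 start: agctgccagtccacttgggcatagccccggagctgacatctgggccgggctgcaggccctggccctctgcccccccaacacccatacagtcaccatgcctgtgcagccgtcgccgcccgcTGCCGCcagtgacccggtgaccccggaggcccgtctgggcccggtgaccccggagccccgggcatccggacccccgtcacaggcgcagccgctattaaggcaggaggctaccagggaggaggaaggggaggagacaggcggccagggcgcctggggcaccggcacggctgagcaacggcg

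The main Mest promoter holds 2 matches and 17 CpG sites in 300 bases, the upstream one 0 matches and 8 CpG sites, and that of Casd1 1 match and 23 CpG sites. Of 32851 RefSeq promoters of this length, 11.6% hold at least 1 match and 1.53% at least 2, and the median number of CpG sites is 7. A match describes the letters of this window and is not a measured binding site. Mest also carries the microRNA gene Mir335 in an intron. The first base of its 5p arm lies 3.264 kb after the main start, within the H3K36me3 peaks of Mest and the epiblast H3K4me3 peak. Its mature arms are given with the seed (bases 2 to 8) in capitals.

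mmu-miR-335-5p: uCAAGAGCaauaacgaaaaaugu
mmu-miR-335-3p: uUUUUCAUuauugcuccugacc

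Reads assigned to an allele over autosomal peaks numbered 0.271 to 6.82 M (M, mega) per library, and reads over all 1 kb windows 2.29 to 24.3 M per ChIP library and 8.04 to 99.7 M per input. The paternal share over all autosomal peaks was 47.4 to 51.2% in wild-type libraries and 44.2 to 48.9% in matDKO/CAST. The 7 epiblast marker genes had a summed promoter H3K4me3 of 148 to 229 RPKM (reads scaled to window length and library depth) in the 6 epiblast libraries and of 45.04 to 84.9 RPKM in the 6 ExE libraries. The 7 ExE marker genes summed to 96.2 to 140 and 116 to 182 RPKM, with 5 of 7 higher in ExE. Markers of visceral endoderm summed to 63.5 to 106 RPKM in epiblast and 86.2 to 131 RPKM in ExE, and those of the ectoplacental cone and giant cells to 13.1 to 26.2 and 13.0 to 29.6 RPKM. The part of these cell types in the results was not tested. Input over the shared Peg10/Sgce promoter was 0.180 to 0.554 RPKM and over the Mest promoter 0.233 to 0.678 RPKM in the 15 inputs. In the Mest region 17 of 70 windows, at chr6:30753001-30770000, were at 0 in all 51 libraries, and the GRCm38 sequence of all 17 is unknown bases.

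A peak counted as informative if at least 20 reads of 1 allele had been assigned in some wild-type library. Of the 35 peaks 21 were informative and 14 were not. Paternal and maternal reads were compared with the quasi-likelihood test of edgeR, and p-values were adjusted over all informative autosomal peaks of a mark and tissue. Each allele column was scaled on its own. The log2 ratios are thus relative to the allele balance of a library and can differ in sign from its read counts. A peak counted as imprinted if both wild-type crosses gave an adjusted p below 0.05 with the same parental allele ahead. Of the 21 informative peaks 6 were imprinted, all with the paternal allele higher, 3 passed in 1 cross alone and 12 in neither. Of all informative peaks in the 6 tables, a share of 9.53% passed in 1 cross alone. Imprinted were 2 of 3 H3K4me3 peaks in epiblast, 2 of 9 in ExE, 0 of 1 and 1 of 1 for H3K27me3, and 0 of 3 and 1 of 4 for H3K36me3. Over all informative peaks, 0.0787% of H3K4me3 peaks in epiblast and 0.19% in ExE were called in the same way, as were 0.28% and 1.12% for H3K27me3 and 0.0361% and 0.213% for H3K36me3. The 6 imprinted peaks lay over the start of Mest or the start shared by Peg10 and Sgce, and they did not include any peak at Casd1, Gmfg-ps or between the genes.

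To ask which parental copy carries the active promoter mark at Peg10 and Sgce, H3K4me3 was compared over the shared start. It was higher on the paternal allele in all wild-type libraries of both tissues, and the bias was smaller than at Mest. The epiblast peak (chr6:4736500-4751500) had 104 paternal and 24 maternal reads in B6/CAST replicate 1, a paternal share of 81.3% (exact 95% interval 73.4 to 87.6%). Replicate 2 had 81 and 40 reads, or 66.9% (57.8 to 75.2%). In CAST/B6 the reads were 87 and 12 in replicate 2, or 87.9%, and 22 and 4 in replicate 3, or 84.6%. All 4 shares lay above 50%, and that of B6/CAST replicate 2 was the lowest. The share averaged 74.1% ± 10.1 over the B6/CAST pair and 86.2% ± 2.31 over the CAST/B6 pair (SD, n = 2 each). The log2 ratio of paternal to maternal reads was 1.55 (SE 0.33, edgeR adjusted p = 0.0421) in B6/CAST and 2.69 (SE 0.39, adjusted p = 0.000247) in CAST/B6. In the joint fit of both crosses, with a term for the strain, it was 2.12 (SE 0.26, adjusted p = 2.1e-05). Without B6/CAST replicate 1 the ratio of that cross was 1.03 (adjusted p = 0.209), and without CAST/B6 replicate 2 that of CAST/B6 was 2.42 (adjusted p = 0.38), both in 1 fit over the crosses.

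In ExE the peak was longer (chr6:4730000-4752500) and its libraries lay closer together. B6/CAST replicate 1 had 221 paternal and 58 maternal reads (79.2%) and replicate 2 had 140 and 38 (78.7%). CAST/B6 replicate 1 had 109 and 23 (82.6%) and replicate 2 had 96 and 19 (83.5%). The 4 shares ran from 78.7 to 83.5%, with CAST/B6 above B6/CAST. The log2 ratio was 1.95 (SE 0.16, edgeR adjusted p = 1.08e-09) in B6/CAST and 2.24 (SE 0.23, adjusted p = 6.9e-08) in CAST/B6, and 2.08 (SE 0.14, adjusted p = 3.14e-17) in the joint fit.

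Mest showed H3K4me3 almost wholly on the paternal allele. In epiblast (chr6:30729000-30741500) B6/CAST replicate 1 had 330 paternal and 7 maternal reads (97.9%) and replicate 2 had 284 and 15 (94.98%). CAST/B6 replicate 2 had 222 and 13 (94.5%) and replicate 3 had 72 and 3 (96.0%). The crosses overlapped, and in none of these libraries did the maternal allele exceed 15 reads. In ExE (chr6:30732000-30741000) the paternal and maternal reads were 329 and 14 (95.9%) and 233 and 6 (97.5%) in B6/CAST replicates 1 and 2, and 182 and 5 (97.3%) and 151 and 7 (95.6%) in CAST/B6 replicates 1 and 2. The ExE shares lay within the range of the epiblast shares. The joint log2 ratio was 4.51 (SE 0.23, edgeR adjusted p = 5.88e-13) in epiblast and 4.77 (SE 0.17, adjusted p = 1.86e-29) in ExE. Each cross passed on its own, at 4.83 and 4.20 in epiblast and at 4.85 and 4.72 in ExE for B6/CAST and CAST/B6. In the joint fit 0.162% of informative H3K4me3 peaks in epiblast and 0.431% in ExE were higher on the paternal allele, and the members that passed it were the peaks over these 2 starts in both tissues.

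**Figure D1:**
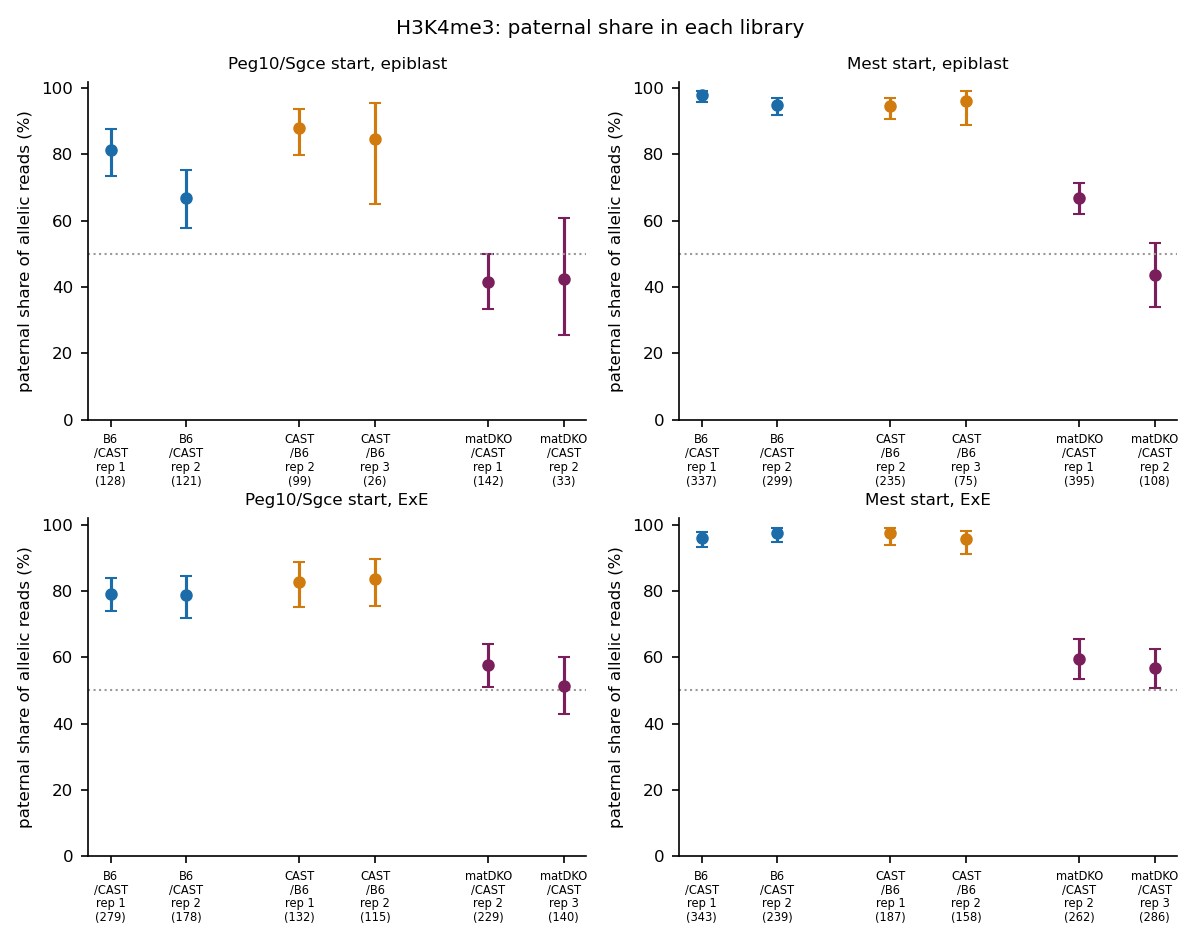
Paternal share of allelic H3K4me3 reads (y axis, percent) in each library at the start shared by Peg10 and Sgce (left) and at the Mest start (right), in epiblast (top) and ExE (bottom). Points are libraries, bars are exact 95% binomial intervals, numbers in parentheses are allelic reads and the dotted line is 50%. Wild-type libraries sit between 66.9 and 97.9%, and the matDKO/CAST libraries between 41.5 and 66.8%.

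The matDKO/CAST embryos ask whether these biases need DNA methylation from the oocyte. Over the Peg10 and Sgce start the paternal share lay near 50% in every matDKO/CAST library. In epiblast replicate 1 had 59 paternal and 83 maternal reads, or 41.5% (33.3 to 50.1%), and replicate 2 had 14 and 19, or 42.4% (25.5 to 60.8%). In ExE replicate 2 had 132 and 97, or 57.6% (50.96 to 64.1%), and replicate 3 had 72 and 68, or 51.4% (42.8 to 59.96%). No matDKO/CAST share reached the lowest wild-type share of its tissue. The log2 ratio within matDKO/CAST was -0.37 (SE 0.26, edgeR adjusted p = 0.522) in epiblast and 0.40 (SE 0.20, adjusted p = 0.485) in ExE. The bias was lower than in B6/CAST by a log2 difference of -1.91 (SE 0.42, adjusted p = 0.0248) in epiblast and -1.55 (SE 0.26, adjusted p = 0.00207) in ExE. The background share of informative H3K4me3 peaks with a paternal bias lower than in B6/CAST was 0.615% in epiblast and 0.81% in ExE. The epiblast difference was -1.41 (adjusted p = 0.352) without B6/CAST replicate 1. Its size changed little without a matDKO/CAST library, where 1 library was left in that group, but it no longer passed, at -1.86 (adjusted p = 1) without replicate 1 and -1.96 (adjusted p = 0.123) without replicate 2. In ExE it was -1.52 (adjusted p = 0.0506) without B6/CAST replicate 1.

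At Mest both matDKO/CAST libraries of a tissue are given apart, since in epiblast this pair was known from earlier results of these data to stand apart. Replicate 1 had 264 paternal and 131 maternal reads, a paternal share of 66.8% (62.0 to 71.5%), while replicate 2 had 47 and 61, a share of 43.5% (34.0 to 53.4%). The shares lay on either side of 50% and their intervals did not overlap. No test is given for a pair chosen for its difference, and the intervals cover counting error only. In percent the wild-type pairs of the same peak were closer, with shares of 97.9 and 94.98% in B6/CAST and 94.5 and 96.0% in CAST/B6. Shares this high leave little room for a gap in percent. As log2 ratios of paternal to maternal reads, the B6/CAST pair (5.46 and 4.20) lay about as far apart as the matDKO/CAST pair (1.01 and -0.37). The B6/CAST ratios rest on 7 and 15 maternal reads. The CAST/B6 pair (4.04 and 4.37) was closer on this scale too. Over the shared Peg10 and Sgce start the same matDKO/CAST libraries had paternal shares of 41.5 and 42.4%.

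In ExE matDKO/CAST replicate 2 had 156 paternal and 106 maternal Mest reads, or 59.5% (53.3 to 65.5%), and replicate 3 had 162 and 124, or 56.6% (50.7 to 62.5%). Both shares were above 50% and far below the wild-type shares, and their intervals overlapped. Compared with B6/CAST, the paternal bias of Mest was lower by a log2 difference of -4.23 (SE 0.43, edgeR adjusted p = 9.19e-07) in epiblast and -4.27 (SE 0.42, adjusted p = 4.63e-06) in ExE. Within matDKO/CAST the epiblast log2 ratio was 0.69 (SE 0.18, adjusted p = 0.00312), and 2.64% of informative H3K4me3 peaks in epiblast passed with the paternal allele higher. In 1 fit over the 3 crosses, where the spread is shared, it was 0.57 (adjusted p = 0.283) with all libraries, between 0.60 and 0.61 without any 1 wild-type library (adjusted p from 0.0986 to 0.29), 1.08 (adjusted p = 0.0861) without matDKO/CAST replicate 2 and -0.25 (adjusted p = 1) without matDKO/CAST replicate 1. In ExE the ratio was 0.56 (SE 0.26, adjusted p = 0.421), where 0.978% of peaks passed. With the library as a block it was 0.57 (adjusted p = 0.000408), and without replicate 3 it was 0.73 (adjusted p = 0.0242).

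H3K27me3 was examined at the same starts. In ExE 1 domain of 44.5 kb (chr6:30695500-30740000) reached from upstream of Mest, across the pseudogene Gm14528 and the small genes Gm27522, Gm44296 and Gm27568, to the main Mest start. It was higher on the paternal allele, which is the copy that also carried H3K4me3 at the start. B6/CAST replicates 1 and 2 had 190 paternal and 110 maternal reads (63.3%) and 149 and 82 (64.5%), and CAST/B6 replicates 1 and 2 had 260 and 111 (70.1%) and 140 and 83 (62.8%). In matDKO/CAST replicate 2 had 111 and 133 (45.5%) and replicate 3 had 73 and 72 (50.3%). Every wild-type share exceeded both matDKO/CAST shares. The joint log2 ratio in wild type was 0.96 (SE 0.10, edgeR adjusted p = 1.84e-17), with 0.90 (SE 0.13, adjusted p = 7.19e-07) in B6/CAST and 1.01 (SE 0.14, adjusted p = 8.19e-09) in CAST/B6. In the joint fit 4.75% of informative ExE H3K27me3 peaks were higher on the paternal allele. Within matDKO/CAST the ratio, relative to the allele balance of each library, was 0.13 (SE 0.18, adjusted p = 0.827), where 0.818% of peaks passed. The difference from B6/CAST was -0.78 (SE 0.22) and did not pass (adjusted p = 0.072), where 0.705% of peaks did. With the library as a block it was -0.77 (adjusted p = 0.0155) and with 1 scaling factor for both alleles of a library -0.97 (adjusted p = 0.00302).

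In epiblast the H3K27me3 peak at the Mest start (chr6:30733500-30740500) held few allelic reads. B6/CAST had 12 paternal and 17 maternal reads in replicate 1 and 3 and 5 in replicate 2, and CAST/B6 had 16 and 8 in replicate 1 and 20 and 12 in replicate 2. In matDKO/CAST the reads were 7 and 12 and, in replicate 2, 5 and 1. The 2 wild-type crosses pointed in opposite directions, and neither passed (joint log2 ratio 0.20, SE 0.40, edgeR adjusted p = 0.991). Over all informative epiblast H3K27me3 peaks 0.628% passed the joint fit with the paternal allele higher, 0.84% passed within matDKO/CAST and 0.146% had a lower bias in matDKO/CAST. The epiblast peak over the Peg10 and Sgce start (chr6:4743500-4749500) was not informative and was not tested. Its paternal and maternal reads were 9 and 1 and 10 and 1 in B6/CAST replicates 1 and 2, 16 and 3 and 11 and 1 in CAST/B6 replicates 1 and 2, and 13 and 13 and 2 and 2 in matDKO/CAST replicates 1 and 2. The paternal reads outnumbered the maternal in all 4 wild-type libraries and equalled them in both matDKO/CAST libraries. In ExE no H3K27me3 peak had been called there.

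H3K36me3 was compared to see which copy is marked along the gene bodies, where peaks and genes did not coincide. In ExE a peak of 24.5 kb over Peg10 and the 5′ end of Sgce (chr6:4737000-4761500) was higher on the paternal allele, and the size of that bias differed between the reciprocal crosses. All 13.2 kb of Peg10 and 10.2 kb of Sgce lie within this peak, and reads of both genes cannot be told apart in its count. B6/CAST replicate 1 had 86 paternal and 3 maternal reads, or 96.6% (90.5 to 99.3%), and replicate 2 had 60 and 6, or 90.9% (81.3 to 96.6%). CAST/B6 replicate 1 had 61 and 28, or 68.5% (57.8 to 78.0%), and replicate 2 had 38 and 15, or 71.7% (57.7 to 83.2%). The crosses did not overlap. In matDKO/CAST replicate 2 had 20 and 16 reads (55.6%) and replicate 3 had 37 and 46 (44.6%), both below the wild-type libraries. The log2 ratio was 4.05 (SE 0.35, edgeR adjusted p = 8.38e-29) in B6/CAST and 1.13 (SE 0.25, adjusted p = 0.00107) in CAST/B6, while matDKO/CAST gave 0.05 (SE 0.32, adjusted p = 0.993). The joint ratio was 2.59 (SE 0.22, adjusted p = 5.12e-26), and the bias in matDKO/CAST was lower than in B6/CAST by -4.01 (SE 0.50, adjusted p = 1.02e-06). Of informative ExE H3K36me3 peaks 0.401% passed the joint fit with the paternal allele higher, 0.326% had a lower bias in matDKO/CAST and 0.276% passed within matDKO/CAST. Without CAST/B6 replicate 1 the CAST/B6 ratio was 1.26 (adjusted p = 0.483) and without replicate 2 it was 1.04 (adjusted p = 0.492), in 1 fit over the crosses.

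The strain term of the joint fit, which was read after these counts were seen, was 1.46 (SE 0.25, edgeR adjusted p = 5.36e-07) for the CAST over the B6 allele at this peak. It was the only one of the 21 informative member peaks that passed. Strain effects in either direction were found at 8.22% of informative H3K36me3 peaks in ExE and 4.45% in epiblast, at 6.09% of H3K4me3 peaks in epiblast and 19% in ExE, and at 7.19% and 23.3% of H3K27me3 peaks. At the ExE H3K4me3 peak over the Peg10 and Sgce start the strain term was -0.13 (SE 0.15, adjusted p = 0.621). In epiblast the H3K36me3 peak over Peg10 and the 5′ end of Sgce (chr6:4740500-4759500) was not informative, with 9 to 31 allelic reads in the wild-type libraries and paternal shares of 44.0 to 66.7%.

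Farther along Sgce a separate ExE H3K36me3 peak (chr6:4667500-4718500) covered 44.1 kb of the gene, with smaller paternal shares in each wild-type library than the peak over Peg10 and the 5′ end of Sgce. The difference between the peaks was not tested. B6/CAST replicates 1 and 2 had 103 paternal and 59 maternal reads (63.6%) and 84 and 42 (66.7%), CAST/B6 replicates 1 and 2 had 115 and 94 (55.0%) and 90 and 55 (62.1%), and matDKO/CAST replicates 2 and 3 had 36 and 37 (49.3%) and 66 and 51 (56.4%). All wild-type shares were above 50%, and 1 matDKO/CAST share lay within their range. The log2 ratio was 0.96 (SE 0.18, edgeR adjusted p = 1.63e-05) in B6/CAST, 0.40 (SE 0.16, adjusted p = 0.227) in CAST/B6 and 0.68 (SE 0.12, adjusted p = 1.75e-05) in the joint fit. In 1 fit over the crosses the B6/CAST ratio was 1.06 (adjusted p = 0.0753) without its replicate 1 and 0.90 (adjusted p = 0.0711) without its replicate 2, and the joint ratio was 0.59 (adjusted p = 0.0761) without CAST/B6 replicate 2. The difference of matDKO/CAST from B6/CAST was -0.61 (SE 0.30, adjusted p = 1). In epiblast the Sgce peak (chr6:4678000-4695500) had paternal shares of 42.9 and 48.1% in B6/CAST and 66.1 and 72.9% in CAST/B6. It passed in CAST/B6 (log2 ratio 1.09, SE 0.30, adjusted p = 0.0135) and not in B6/CAST (-0.14, adjusted p = 0.967) or jointly (0.48, adjusted p = 0.999). In 1 wild-type cross alone 2.78% of informative H3K36me3 peaks passed in epiblast and 5.21% in ExE, in either direction. Of informative epiblast H3K36me3 peaks 0.0993% passed the joint fit with the paternal allele higher, 0.153% passed within matDKO/CAST and 0.144% had a lower bias in matDKO/CAST. No member peak was among them.

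Along Mest the bias seen for H3K4me3 was not found for H3K36me3. Total H3K36me3 along the gene was 0.675 to 0.933 RPKM, against 0.461 to 0.649 RPKM in the inputs. With so little signal and few allelic reads a bias could be missed. In ExE (chr6:30735000-30753000) the paternal and maternal reads were 30 and 23 and 12 and 16 in B6/CAST replicates 1 and 2, 22 and 24 and 29 and 25 in CAST/B6 replicates 1 and 2, and 9 and 10 and 12 and 11 in matDKO/CAST replicates 2 and 3. The shares ran from 42.9 to 56.6% and fell on both sides of 50% in each cross. The joint log2 ratio was 0.08 (SE 0.22, edgeR adjusted p = 0.996), and in epiblast (chr6:30733000-30752500) it was 0.45 (SE 0.22, adjusted p = 0.999), with wild-type shares of 52.2 to 61.7%. Both peaks also overlap the 3′ end of Copg2, a coatomer subunit gene on the opposite strand, and reads of the 2 genes cannot be told apart there. Casd1, beyond Sgce, had ExE H3K36me3 (chr6:4602000-4653500) with paternal shares of 40.2 and 40.7% in B6/CAST, 49.5 and 44.4% in CAST/B6 and 43.1 and 47.9% in matDKO/CAST. It passed in B6/CAST (log2 ratio -0.49, SE 0.16, adjusted p = 0.0377) and not in CAST/B6 (-0.22, adjusted p = 0.654) or jointly (-0.36, adjusted p = 0.18).

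**Figure D2:**
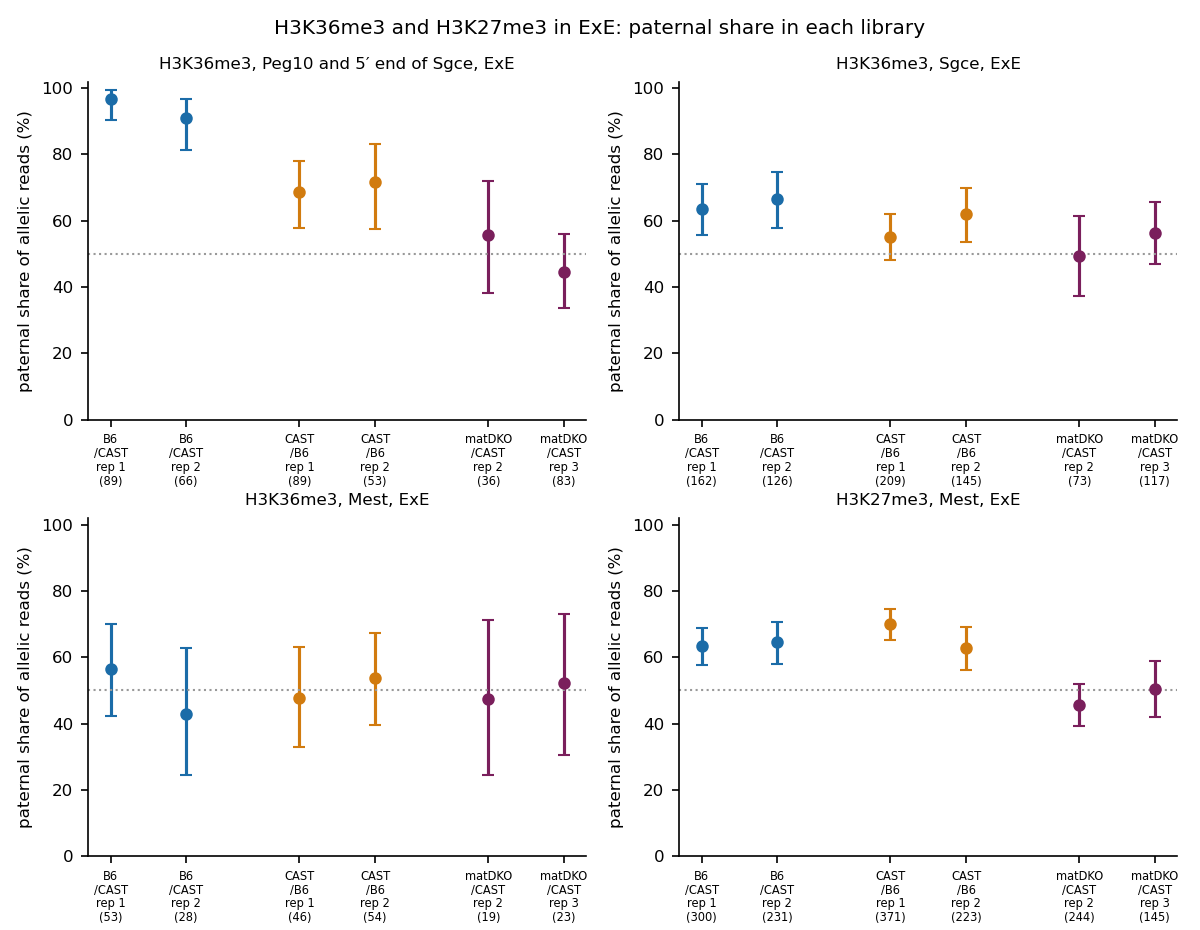
Paternal share of allelic reads (y axis, percent) in each ExE library for H3K36me3 over Peg10 with the 5′ end of Sgce, farther along Sgce and over Mest, and for H3K27me3 over the Mest domain. Points are libraries, bars are exact 95% binomial intervals, numbers in parentheses are allelic reads and the dotted line is 50%. Over Peg10 with the 5′ end of Sgce the B6/CAST libraries (96.6 and 90.9%) lie above the CAST/B6 libraries (68.5 and 71.7%), while over Mest H3K36me3 lies between 42.9 and 56.6%.

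The other informative H3K4me3 peaks of the regions were not called. In epiblast this was the Casd1 start (chr6:4599500-4603000), with paternal shares of 35.3 to 49.4% in wild type and a joint log2 ratio of -0.51 (SE 0.28, edgeR adjusted p = 1). In ExE the Casd1 start (chr6:4599500-4603500) had 40.96 to 60% and a ratio of -0.09 (SE 0.20, adjusted p = 0.997). Casd1 shares the region with the Peg10 and Sgce promoter, and neither parent was called higher at its start. Between Casd1 and Sgce 3 ExE peaks had joint ratios of 0.94 (chr6:4652500-4655000, SE 0.28, adjusted p = 0.153), 1.04 (chr6:4658000-4660000, SE 0.45, adjusted p = 0.742) and 0.67 (chr6:4663500-4669500, SE 0.36, adjusted p = 0.885). The first had paternal shares of 61.2, 58.0, 65.2 and 78.3% in the 4 wild-type libraries and of 44.8 and 51.2% in matDKO/CAST. Inside Sgce 2 ExE peaks had ratios of 0.54 (chr6:4680500-4686500) and 0.99 (chr6:4723000-4727000), and the pseudogene Gmfg-ps had 0.24 (chr6:4889000-4894000). By sign, 8 of the 9 informative ExE H3K4me3 peaks were higher on the paternal allele in both wild-type crosses, 2 of them with a call, where 14.9% of all informative ExE H3K4me3 peaks were so by sign. Neighbouring peaks share chromatin samples and a domain and are not replicates.

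The peaks without enough reads are accounted for as follows. In H3K4me3 they were 7 in epiblast, among them a peak over the most upstream Mest start (chr6:30720500-30724000) with 11 paternal and 4 maternal reads in B6/CAST replicate 1, 17 and 6 in replicate 2, 5 and 3 in CAST/B6 replicate 2 and none in replicate 3, and 3 in ExE. In H3K27me3 there was 1 and in H3K36me3 there were 3, all in epiblast. The largest wild-type allele column among these 14 peaks held 19 reads. The annotated genes Gm44121, Gm20714 and Gm26828 held no peak of any mark, and Gm44432 overlaps the H3K36me3 peaks of Casd1.

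**Figure D3:**
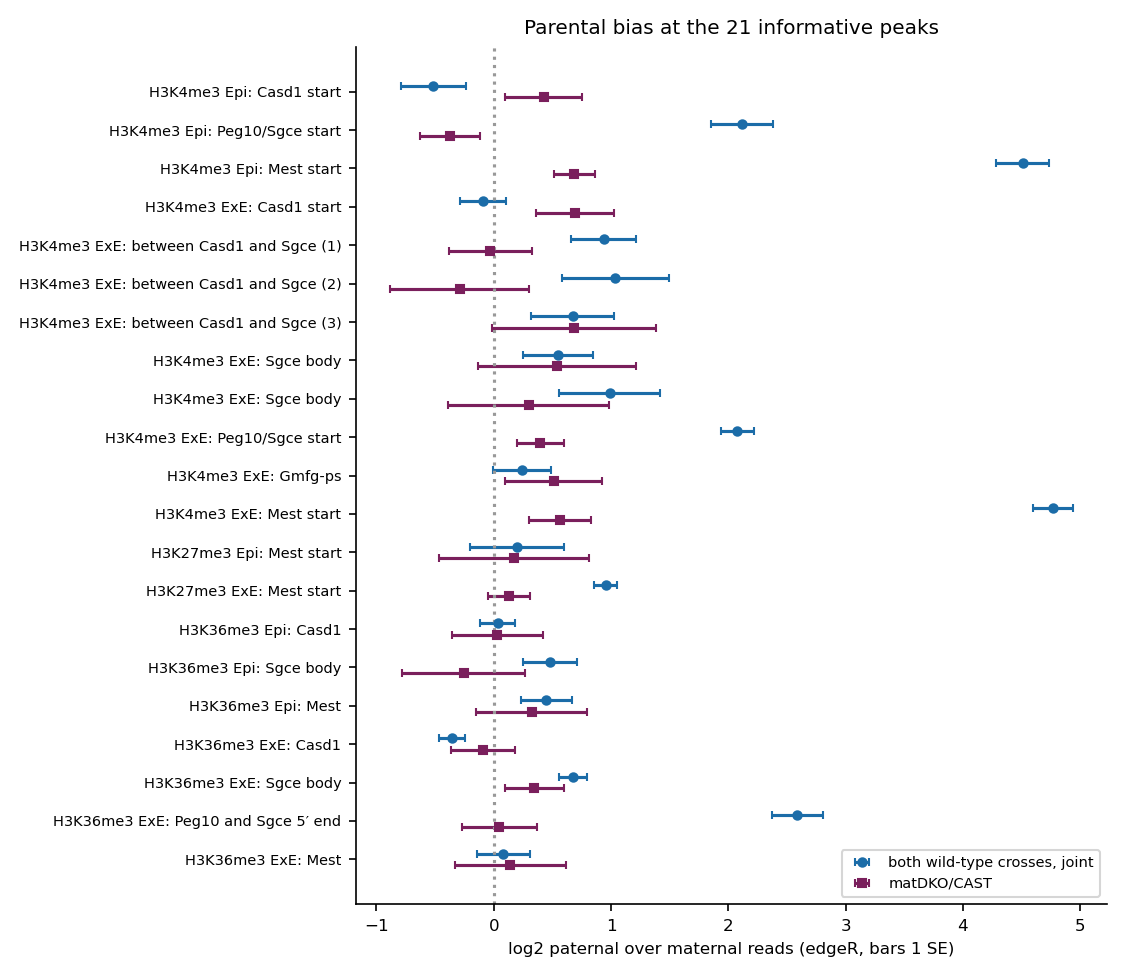
Log2 ratio of paternal to maternal reads (x axis, edgeR estimate, bars 1 SE) at each of the 21 informative peaks, jointly in both wild-type crosses (circles) and within matDKO/CAST (squares). Each allele column was scaled on its own. In wild type the H3K4me3 peaks over the Peg10, Sgce and Mest starts (2.08 to 4.77) and the ExE H3K36me3 peak over Peg10 and the 5′ end of Sgce (2.59) lie to the right of the other 16 peaks, and the matDKO/CAST estimates of the same peaks lie between -0.37 and 0.69.

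Total signal was read without regard to the allele. H3K4me3 was taken over the 3 windows around a start, and since Peg10 and Sgce start within 1 kb of each other they share the same windows. Values are RPKM averaged over the windows, and each library came from pooled tissue, so that fewer cells with a mark and less of it per cell cannot be told apart. Over the shared promoter H3K4me3 was 12.6 and 7.75 RPKM in epiblast of B6/CAST (replicates 1 and 2), 12.9 and 7.25 RPKM in CAST/B6 (replicates 2 and 3) and 20.3 and 18.9 RPKM in matDKO/CAST (replicates 1 and 2). In ExE it was 13.5 and 11.6 RPKM in B6/CAST (replicates 1 and 2), 10.9 and 13.5 RPKM in CAST/B6 (replicates 1 and 2) and 19.3 and 28.1 RPKM in matDKO/CAST (replicates 2 and 3). All 4 matDKO/CAST libraries were above all 8 wild-type libraries. Ordered by mean, the groups were matDKO/CAST in ExE (23.7 ± 6.21 RPKM, SD, n = 2) and epiblast (19.6 ± 1.01), then B6/CAST in ExE (12.6 ± 1.34), CAST/B6 in ExE (12.2 ± 1.85), and B6/CAST (10.2 ± 3.42) and CAST/B6 (10.1 ± 4.00) in epiblast, and neighbours within the wild-type groups overlapped. On the log2(RPKM + 0.5) scale matDKO/CAST was higher than wild type by 0.96 (SE 0.23, limma adjusted p = 0.00421) in epiblast and by 0.89 (SE 0.23, adjusted p = 0.0307) in ExE. Over all genes tested 1.53% and 0.167% were higher in this comparison. These calls depended on the setting: neither passed with the replicate number as a block, which the data do not show to pair libraries between crosses (0.89 and 1.04, adjusted p = 0.0658 and 0.219), with no filter on low values (adjusted p = 0.536 and 1) or against B6/CAST alone (adjusted p = 0.11 and 0.279). Leaving out any of 4 epiblast libraries (B6/CAST replicate 2, CAST/B6 replicate 3 or either matDKO/CAST library) gave differences of 0.80, 0.77, 0.91 and 1.02 with adjusted p of 0.0738, 0.0528, 0.129 and 0.121. In ExE the difference was 0.94, 0.84, 0.82, 1.16 and 0.63 without B6/CAST replicate 1 or 2, CAST/B6 replicate 1 or matDKO/CAST replicate 2 or 3 (adjusted p from 0.0734 to 1). ExE and epiblast differed by 0.32 (SE 0.19, adjusted p = 0.269) in wild type, where 22.3% of genes passed in either direction.

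At the Mest promoter H3K4me3 was 13.5 and 11.1 RPKM in B6/CAST, 12.1 and 8.74 in CAST/B6 and 18.3 and 15.9 in matDKO/CAST in epiblast. In ExE it was 12.8 and 11.4, 7.82 and 9.68, and 13.7 and 21.5 RPKM for the same crosses. The matDKO/CAST libraries were again above the wild-type libraries of their tissue. The difference between matDKO/CAST and wild type was 0.59 (SE 0.23, limma adjusted p = 0.255) in epiblast and 0.71 (SE 0.23, adjusted p = 0.214) in ExE, and did not pass. It passed with quantile normalization (adjusted p = 0.0107 and 0.0255) and with edgeR on the reads recovered from the RPKM values (adjusted p = 0.00992 and 0.000817). ExE and epiblast differed by -0.12 (SE 0.19, adjusted p = 0.841).

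H3K27me3 over the Peg10 and Sgce promoter was an epiblast feature. It was 1.09 and 1.72 RPKM in B6/CAST, 1.35 and 1.06 in CAST/B6 and 1.75 and 1.27 in matDKO/CAST in epiblast, against 0.311 and 0.298, 0.146 and 0.136, and 0.184 and 0.226 RPKM in ExE. Every epiblast library was above every ExE library, and the ExE values lay within or under the input range of 0.180 to 0.554 RPKM. ExE was lower by a log2 difference of -1.31 (SE 0.16, limma adjusted p = 9.09e-15) in wild type, as were 22.5% of genes tested. matDKO/CAST differed from wild type by 0.16 (SE 0.19, adjusted p = 0.606) in epiblast and -0.03 (SE 0.19, adjusted p = 0.965) in ExE, where 20.1% and 0.551% of genes passed in either direction and the median of all genes was -0.17 and -0.12. At the Mest promoter the mean epiblast H3K27me3 was 0.696 ± 0.621 RPKM for B6/CAST, 0.848 ± 0.00814 for CAST/B6 and 0.455 ± 0.130 for matDKO/CAST (SD, n = 2 each). In ExE it was 1.16 ± 0.116, 1.01 ± 0.110 and 1.44 ± 0.167 RPKM. B6/CAST replicate 2 in epiblast was the lowest library, at 0.257 RPKM against 1.13 RPKM in replicate 1. ExE and epiblast differed by 0.37 (SE 0.17, adjusted p = 0.0532), by 0.65 (adjusted p = 0.00164) without B6/CAST replicate 1 in epiblast and by 0.09 (adjusted p = 0.717) without B6/CAST replicate 2 there, and without either matDKO/CAST epiblast library the same difference passed (adjusted p = 0.0398 and 0.0406). matDKO/CAST differed from wild type by -0.37 (adjusted p = 0.194) in epiblast, by -0.64 (adjusted p = 0.0298) without B6/CAST replicate 2, by -0.09 (adjusted p = 0.824) without B6/CAST replicate 1 and by -0.23 (adjusted p = 0.725) without matDKO/CAST replicate 2, and by 0.30 (adjusted p = 0.528) in ExE.

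H3K36me3 along Peg10 was higher in ExE. It was 0.541 and 0.624 RPKM in B6/CAST, 0.792 and 0.695 in CAST/B6 and 0.752 and 0.904 in matDKO/CAST in epiblast, against 3.06 and 2.41, 1.93 and 1.85, and 2.29 and 3.42 RPKM in ExE. Every ExE library was above every epiblast library, and 5 of the 6 epiblast libraries were above the input range of 0.319 to 0.549 RPKM over the same windows. The log2 difference was 1.26 (SE 0.11, limma adjusted p = 0.000244). All genes had a median difference of 0.30 in this comparison and 59.4% of them were higher in ExE. With quantile normalization, which removes that shift, the Peg10 difference was 0.93 (adjusted p = 0.000332). Along Sgce the difference of 0.22 (SE 0.06, adjusted p = 0.009) was below that median, and it was 0.04 (adjusted p = 0.536) with quantile normalization and -0.04 (adjusted p = 0.752) with edgeR on recovered reads. Its values were 0.529 to 0.634 RPKM in wild-type epiblast and 0.669 to 0.820 RPKM in wild-type ExE, where the inputs were at 0.506 to 0.595 RPKM. Along Mest all values lay between 0.675 and 0.933 RPKM, where the inputs were at 0.461 to 0.649 RPKM. The Mest difference was 0.07 (SE 0.07, adjusted p = 0.403) in the fit of RPKM, -0.20 (adjusted p = 0.0266) with quantile normalization and -0.32 (adjusted p = 0.0165) with edgeR. None of the 3 genes passed between matDKO/CAST and wild type in either tissue (adjusted p from 0.49 to 0.923), where 0.174% of genes passed in epiblast and 0.0238% in ExE.

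**Figure D4:**
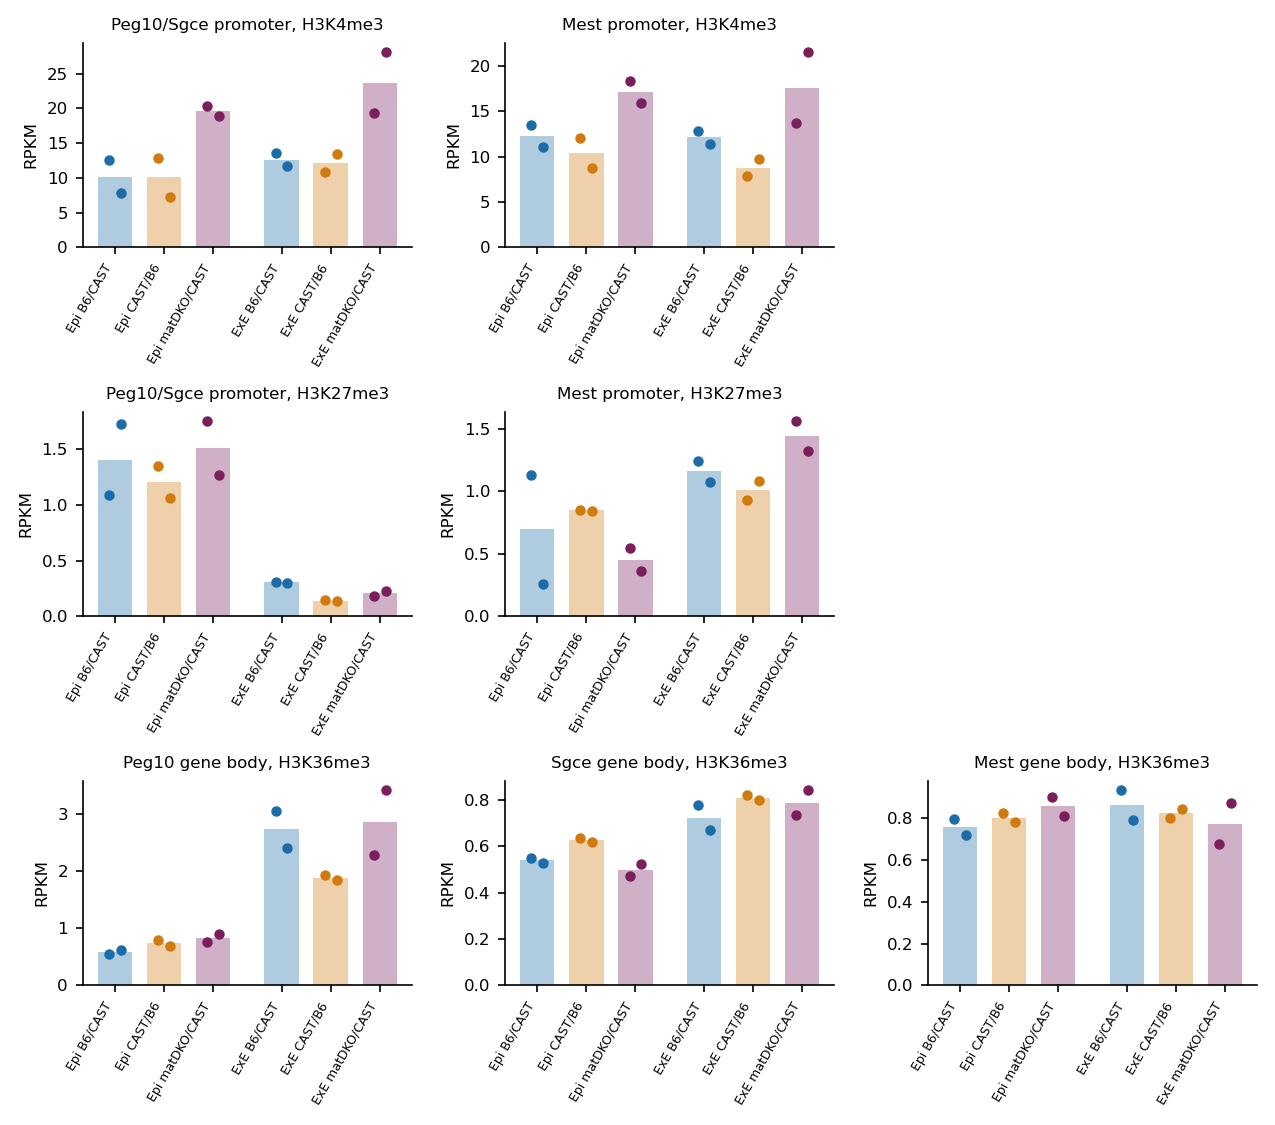
Total signal (y axis, RPKM) by tissue and cross for promoter H3K4me3 and H3K27me3 (3 windows around the start) and gene body H3K36me3. Bars are means of 2 libraries and points are the libraries. H3K4me3 over the Peg10/Sgce promoter ranges from 18.9 to 28.1 RPKM for matDKO/CAST, above the wild-type range of 7.25 to 13.5 RPKM, and Peg10 H3K36me3 is 1.85 to 3.42 RPKM in ExE and 0.541 to 0.904 RPKM in epiblast.

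The windows place these signals along the genes. In wild-type ExE the highest H3K36me3 window of the Peg10 and Sgce region lay 7.2 kb after the Peg10 start, at a mean of 3.38 RPKM (2.70 to 4.94 over 4 libraries). In matDKO/CAST it lay 8.2 kb after the start, at 5.77 RPKM (3.87 and 7.67). In wild-type epiblast the highest window was elsewhere, inside Casd1, at 1.38 RPKM. For H3K27me3 in epiblast the highest window lay 1.2 kb after the Peg10 start in wild type (1.85 RPKM, 1.55 to 2.31) and in matDKO/CAST (2.22 RPKM, 1.90 and 2.54). The highest H3K4me3 window of this region lay at the Casd1 start in all groups. Around Mest the highest H3K4me3 window lay 0.5 kb after the main start in all groups, at 16.7 RPKM in wild-type epiblast and 16.1 RPKM in wild-type ExE. H3K27me3 in wild-type ExE was highest 3.5 kb before it (2.19 RPKM, 1.58 to 2.45), and H3K36me3 was highest 6.5 kb after it in both wild-type tissues (1.72 and 1.86 RPKM).

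**Figure D5:**
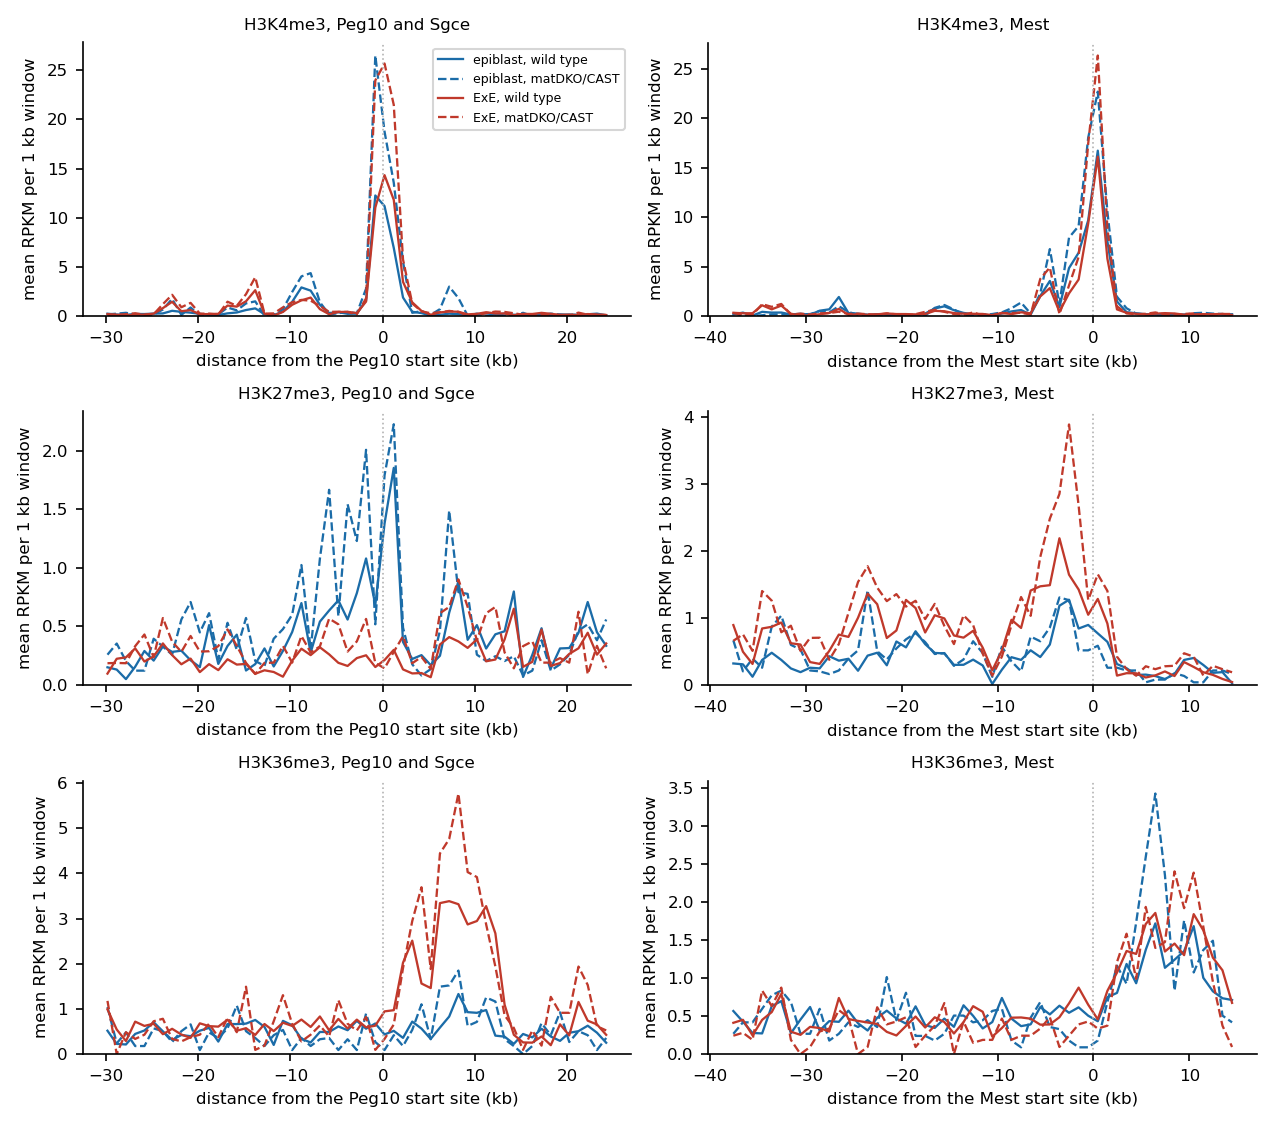
Mean RPKM of 1 kb windows (y axis) by distance from the Peg10 start (left) or the main Mest start (right) in kb (x axis), for H3K4me3, H3K27me3 and H3K36me3. Lines are means of 4 wild-type or 2 matDKO/CAST libraries in epiblast and ExE. ExE H3K36me3 rises along Peg10 to 3.38 RPKM in wild type, while epiblast H3K27me3 at the Peg10 start reaches 1.85 RPKM in wild type, where the wild-type ExE line lies lower.

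The 3 genes were set beside other genes of the same kind. A list of 17 genes at or controlled by oocyte-methylated regions, which encode among others the transcription factor Plagl1 and the zinc finger protein Peg3, had 14 informative H3K4me3 peaks in epiblast, with 7 imprinted toward the paternal and 1 toward the maternal allele, and 13 in ExE, with 9 and 1. Their median joint log2 ratio was 3.54 in epiblast and 1.40 in ExE, against 0.00 and -0.02 over all peaks. Against these medians Mest lay higher in both tissues, while the shared Peg10 and Sgce start lay lower in epiblast and higher in ExE. The bias was lower in matDKO/CAST than in B6/CAST at 7 of 14 of these peaks in epiblast (1 was higher) and 9 of 13 in ExE. In matDKO/CAST epiblast the median paternal share of the list was 52.1% in replicate 1 (38.0 to 72.7%) and 54.5% in replicate 2 (38.5 to 66.7%), while Mest had 66.8 and 43.5%. Whether the Mest gap exceeds that of the list was not tested. For H3K27me3 the list had 6 of 6 informative peaks imprinted toward the paternal allele in epiblast and 5 of 7 in ExE, with 4 and 5 lower in matDKO/CAST. For H3K36me3 it had 4 paternal and 2 maternal of 11 in epiblast and 3 and 2 of 11 in ExE.

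A list of 24 genes around the members on chromosome 6 had 17 informative H3K4me3 peaks in each tissue, with none imprinted and none with a bias that differed in matDKO/CAST by edgeR. Their median joint ratio was 0.00 in epiblast and -0.02 in ExE. For H3K27me3 it had 9 and 12 informative peaks with 0 and 1 imprinted. That 1 peak was counted for Cep41, whose start lies within 2 kb of it, and is the Mest domain described above, so none of the other H3K27me3 peaks of this list was imprinted. For H3K36me3 the list had 6 and 7 with none.

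The peaks at a start whose paternal shares were most like those of the members were found by the distance between log2 ratios over the 6 libraries of a tissue. For Peg10 and Sgce they were Zdbf2, Peg12 and Ccdc63 in epiblast (distances 0.98, 1.67 and 1.89 among 13850 peaks) and Ccdc40, Arhgef10 and Zdbf2 in ExE (1.33, 1.73 and 1.75 among 14143). For Mest they were Kcnq1ot1, Inpp5f and Nap1l5 with Herc3 in epiblast (2.60, 2.76 and 3.30) and Impact, Kcnq1ot1 and Peg13 in ExE (1.56, 1.60 and 2.11). Ccdc63 and the Nap1l5 peak held as few as 2 reads in a library, and the Inpp5f peak as few as 24. Mest in epiblast had the larger distances to its nearest peaks, and these had paternal shares of 46.8 to 52.3% in matDKO/CAST replicate 1, against 66.8% at Mest, and of 54.5 to 62.5% in replicate 2, against 43.5%. Mest was thus above these 3 peaks in 1 library and below them in the other. Both Mest shares lay within the range of the list of 17 genes above, at 38.0 to 72.7% in replicate 1 and 38.5 to 66.7% in replicate 2.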

How the data were processed

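ChIP-seq of pooled E6.5 tissue gave the libraries. Per the methods and the submitters' processing notes, the authors trimmed reads with Trim Galore (version 0.4.4 in the notes), aligned them with Bowtie2 (2.3.2) to GRCm38 masked at B6 and CAST variants, and split them by allele with SNPsplit. For matDKO/CAST, variants shared by 129 and CAST were dropped and reads recovered on a 129 alignment were added to the maternal allele alone, which could raise maternal counts in that cross only. Peaks were called with chromstaR per cross and tissue and merged. The deposited allelic tables hold whole-number counts of reads per peak and parent. The authors' deposited windows table holds RPKM from all reads. The deposited peak lists hold a score column at 0 throughout, and only their positions were used.

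Allele counts were tested per cross with the quasi-likelihood test of edgeR (4.0.16, R 4.3.3), with TMM factors per allele column, over informative autosomal peaks (at least 20 reads in an allele column of a wild-type library). The joint fit had terms for cross and strain, and the matDKO/CAST difference was the interaction of cross and parent. RPKM were tested as log2(RPKM + 0.5) with limma (3.58.1) over autosomal genes with a mean of at least 0.5 RPKM in the 12 libraries of a mark. Promoters were windows within 1 kb of a start. Wild type was the mean of both reciprocal crosses. Tests were two-sided with Benjamini-Hochberg adjustment, and both fits were tested on simulated data. Fisher's exact test of library pairs had been planned and is not reported, since the Mest pair of matDKO/CAST had been singled out on these data. Intervals are exact binomial (Clopper-Pearson, 95%) and cover counting error only. DESeq2 (1.42.0) served as an alternative. Low RPKM values were whole multiples of 1 read in 100% of cases (tolerance 0.01), so edgeR was also run on the recovered reads.

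The members and lists were chosen with earlier results of these data known, and the strain term was read after the counts were seen. Named were Peg10, Sgce and Mest, the other annotated genes of the 2 regions, and for each H3K4me3 peak over a member start the 3 nearest peaks at an annotated start. Genes of the lists were counted, and those the text names were chosen after their values were seen. The labels do not say what a replicate number shares. Deviations of same-numbered epiblast and ExE libraries of 1 cross correlated at 0.21 to 0.23 for H3K4me3, -0.086 to 0.11 for H3K27me3 and 0.051 to 0.20 for H3K36me3. Between crosses they correlated at -0.31 to 0.36, -0.17 to 0.090 and -0.12 to 0.13. By a minimum of 0.1 in every pair the numbers paired the tissues of a cross for H3K4me3 alone. A block of cross and number, added after seeing the data, was fitted for ExE against epiblast and changed no H3K4me3 call.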

Additional observations from a re-analysis of the deposited data

Results flagged for a closer look

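At 5 member peaks matDKO/CAST had another paternal bias than B6/CAST by the test of the interaction of cross and parent. The log2 differences were -1.913 for H3K4me3 over the Peg10 and Sgce start and -4.231 over the Mest start in epiblast, -1.547 and -4.274 over the same starts in ExE, and -4.006 for H3K36me3 over Peg10 and the 5′ end of Sgce in ExE. At the last peak the bias also differed between B6/CAST and CAST/B6, with a strain term of 1.46 on the log2 scale in favour of the CAST allele. It was 1.12 (edgeR adjusted p = 0.0386) without B6/CAST replicate 1 and 1.87 (adjusted p = 0.000237) without B6/CAST replicate 2. The part of the added 129 reads of the maternal allele in the differences from B6/CAST was not tested.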

How the results depend on the processing

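Over 67 results, odds ratios between matDKO/CAST libraries included, and 934 values under another setting, 858 kept their direction and their side of the threshold, 43 no longer passed, 17 newly passed and 16 changed sign. Higher on the paternal allele in both crosses were 6 peaks, 7 had a joint effect and 5 a bias that differed in matDKO/CAST. These counts stayed within 1 of their values under the settings that kept all libraries. They were not taken with a library left out, where calls at the Peg10 and Sgce start were lost as given above. Depth limits the 14 peaks that were not informative, the H3K27me3 peak of Mest in epiblast (8 to 32 allelic reads in wild type) and the epiblast H3K4me3 peak of Peg10 and Sgce, where CAST/B6 replicate 3 held 26 reads. The causes of the changes were not tested. DESeq2 gave no adjusted p in 4 cases.

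For the Peg10 and Sgce start in epiblast H3K4me3, the B6/CAST log2 ratio was 1.55 without TMM factors, 1.49 with 1 factor for both alleles of a library and 1.54 with 20 reads required in each of the 3 crosses, none of which passed (edgeR adjusted p = 0.055, 0.082 and 0.103). At a threshold of 0.01 neither this ratio (1.55) nor the matDKO/CAST difference (-1.91) passed, and by DESeq2 the difference was -1.90 (adjusted p = 0.179). The Mest ratio in matDKO/CAST epiblast was 0.46 by DESeq2 (adjusted p = 1) and 0.57 in 1 fit over the crosses (adjusted p = 0.283). With 1 factor for both alleles the ExE matDKO/CAST ratios turned to -0.15 for Mest H3K27me3 and -0.10 for the H3K36me3 peak over Peg10 and the 5′ end of Sgce, and the Mest H3K27me3 difference passed at -0.97. DESeq2 did not call the latter peak in CAST/B6 (1.14) or the H3K36me3 peak farther along Sgce in B6/CAST (0.97) or jointly (0.69).

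With the library as a replicate block, which pairs the 2 alleles of 1 library, the Mest ratio in matDKO/CAST ExE H3K4me3 passed at 0.57 and the Mest H3K27me3 difference at -0.77, and no other call changed. The labels' replicate number as a replicate block moved the total H3K4me3 difference of matDKO/CAST at the Peg10 and Sgce promoter to 0.89 in epiblast and 1.04 in ExE (limma adjusted p = 0.0658 and 0.219), and changed no other call. With cross and number together as a replicate block, chosen after seeing the data, the Mest H3K27me3 difference between tissues passed at 0.37 (adjusted p = 0.0135), although the numbers did not pair libraries for this mark, and no other difference between tissues changed its call.

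For total signal, those 2 differences were also lost with no filter (0.96 and 0.89) and against B6/CAST alone (0.95 and 0.87). The ExE against epiblast difference there passed with quantile normalization (0.54) and with edgeR on recovered reads (0.41). At the Mest promoter H3K4me3 gave 0.10 with quantile normalization between tissues, and its matDKO/CAST differences passed at 0.70 and 0.60 with it and at 0.65 and 0.76 with edgeR. The matDKO/CAST difference of Peg10 and Sgce H3K27me3 in ExE turned to 0.064, 0.13 and 0.20 with quantile normalization, edgeR and windows within 2 kb. The Mest H3K27me3 difference between tissues passed at 0.57 with a pseudocount of 0.1 and at 0.34 within 2 kb. Between tissues H3K36me3 gave 0.044 and -0.038 for Sgce and -0.20 and -0.32 for Mest with quantile normalization and edgeR. With quantile normalization the split of genes higher and lower in ExE went from 7502 and 536 to 1208 and 1448 for H3K36me3 and from 1032 and 3093 to 3700 and 3440 for H3K4me3. In matDKO/CAST epiblast it went from 283 and 19 to 47 and 35 for H3K4me3, from 259 and 2149 to 381 and 408 for H3K27me3 and from 2 and 20 to 116 and 158 for H3K36me3, and in ExE from 31 and 38 to 46 and 93 for H3K4me3 and from 15 and 51 to 129 and 150 for H3K27me3.

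Leaving out 1 library, where a lone library is assumed to vary like the others, changed a call or sign for these results. In epiblast H3K4me3 over Peg10 and Sgce the range was 1.03 to 2.18 in B6/CAST, 2.42 to 2.78 in CAST/B6 and -2.57 to -1.41 for the matDKO/CAST difference, and over Mest -0.25 to 1.08 within matDKO/CAST. In ExE it was -1.83 to -1.34 for the Peg10 and Sgce H3K4me3 difference, 0.43 to 0.73 for Mest within matDKO/CAST, 1.04 to 1.26 for H3K36me3 over Peg10 and the 5′ end of Sgce in CAST/B6, -0.22 to 0.55 for it in matDKO/CAST (-0.22 without replicate 2), 0.90 to 1.06 for H3K36me3 farther along Sgce in B6/CAST and 0.59 to 0.81 jointly. Total H3K4me3 of matDKO/CAST at the Peg10 and Sgce promoter ranged from 0.77 to 1.16 in epiblast and from 0.63 to 1.16 in ExE, and H3K27me3 there from -0.013 to 0.33 and from -0.070 to 0.017. Mest H3K27me3 ranged from 0.091 to 0.65 between tissues and from -0.64 to -0.087 for matDKO/CAST in epiblast. In ExE the matDKO/CAST difference of H3K36me3 ranged from -0.034 to 0.085 for Sgce and from -0.19 to 0.031 for Mest.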

Other observations

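In matDKO/CAST epiblast the highest H3K36me3 window of the Mest region lay 6.5 kb after the main start, as in wild type, at a mean of 3.43 RPKM (3.03 and 3.83) against 1.72 RPKM (1.35 to 2.45) in the 4 wild-type libraries. Depth was low, as 1 read was 0.479 RPKM in matDKO/CAST replicate 2 and 0.178 RPKM in replicate 3. Along the whole gene the epiblast means were 0.855 RPKM in matDKO/CAST, 0.759 in B6/CAST and 0.802 in CAST/B6. In ExE the H3K27me3 maximum of the Mest region was 3.89 RPKM (2.91 and 4.87) in matDKO/CAST, 2.5 kb before the start, against 2.19 RPKM (1.58 to 2.45) in wild type. The ExE H3K36me3 maximum after the Peg10 start was 3.87 and 7.67 RPKM in the matDKO/CAST libraries and 2.70 to 4.94 RPKM in wild type, so these groups overlapped. Each maximum was picked as the highest window of its group, and none of these differences was tested.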
